A study of Mus musculus with 5 samples.

Results

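Sodium, calcium and HCN channel genes were examined in the newborn mouse dLGN (dorsal lateral geniculate nucleus), which passes retinal signals on to visual cortex. The genes were chosen by name, as a list of 33 genes that encode pore-forming and auxiliary subunits of voltage-gated sodium channels, voltage-gated calcium channels and HCN channels. The platform annotation named 29 of them through at least 1 probe set that matched no other gene, among 18193 genes named in this way. Scn4a, Cacna1i, Cacnb3 and Hcn4 had no such probe set and were not analysed here. Each gene was read at its brightest probe set, by the mean of all 5 arrays, and the other probe sets of the gene served as a check, 72 probe sets in all.

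The knockout group was 2 pools of dLGN from homozygous Sema6A knockout mice (Sema6A-/-), and the control group was 3 pools from Sema6A heterozygous mice, so the controls carry the knockout allele too. Both were on a C57BL/6 background and at postnatal day 0, and each pool mixed tissue of pups of the same genotype from more than 1 litter. Sema6A is a transmembrane semaphorin that guides axons. How the allele was made is not given in the labels, and no wild-type pool was compared. Each array measured 1 pool, so every p-value below measures the spread between pools, and in bulk tissue fewer cells of a type and less RNA per cell cannot be told apart.

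Voltage-gated sodium channels open on depolarisation and carry the upstroke of the action potential. Voltage-gated calcium channels couple depolarisation to transmitter release, gene regulation and, in thalamic relay neurons, the low-threshold burst that T-type channels produce. HCN channels open on hyperpolarisation, pass a depolarising cation current and set the resting potential and rhythm of relay neurons. In all of these families a large pore-forming subunit is accompanied by smaller subunits that set how much channel reaches the membrane and how it gates.

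The arrays were alike over all probe sets, with Pearson correlations between pairs from 0.985 to 0.995. The pairs with knockout pool 1 were the lowest, at 0.9853 to 0.9872 with the controls and 0.9885 with knockout pool 2. Knockout pool 2 correlated with the controls at 0.9898 to 0.9926, and the controls with each other at 0.9939 to 0.9951. Sema6a itself read 7.81 and 7.85 on the log2 scale in the knockout pools and 10.39 to 10.65 in the controls. Relay neuron markers were present, with 19 of 20 measured genes at or above the median level of all probe sets (6.41), among them Slc17a6, the vesicular glutamate transporter of relay neurons, at a mean of 12.91. Over all genes, 15.8% lay above every control in both knockout pools and 13.9% below every control. Of the 20 relay neuron markers, 7 lay above and 5 below every control, with log2 fold changes from -2.12 to 1.97. The summed linear signal of these 20 was 68089 in knockout pool 1, 76896 in knockout pool 2 and 72620 to 74929 in the controls. Markers of other cells also differed between the groups. All 17 measured microglia markers had a higher mean in the knockout and 16 lay above every control in both knockout pools; their summed linear signal was 13353 and 17198 in the knockout and 3752 to 4340 in the controls. Of 23 GABAergic and prethalamic markers, 11 lay above every control in both knockout pools, and their summed signal was 13367 in knockout pool 1, 3226 in knockout pool 2 and 2196 to 3708 in the controls. For oligodendrocyte lineage markers, 7 of 12 lay above every control, with sums of 12630 and 13797 against 9720 to 10605. The part of these differences in the channel values was not tested.

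No channel gene passed an adjusted p of 0.05. The limma fit over all 45037 probe sets called 0 of the 29 genes after Benjamini-Hochberg adjustment, with adjusted p-values from 0.193 to 0.970. The background was 0.0733% of all probe sets and 0.104% of all genes at their brightest probe set. Differences were small: the median log2 fold change, knockout minus control, was -0.08 over the 29 genes, with a range from -0.97 to 0.80, and 0.01 over all genes.

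Before adjustment the calcium channel genes held most of the differences, and more of these were lower than higher in the knockout. At an unadjusted limma p under 0.05, 7 of the 29 genes were lower, against 4.90% of all genes, and 3 were higher, against 6.90% of all genes. The 7 were Scn2b, Cacna1c, Cacna1f, Cacna1s, Cacna1h, Cacnb4 and Cacna2d4, and the 3 were Scn3b, Cacnb2 and Cacna2d2. Of these 10 genes, 8 belong to the 16 measured calcium channel genes. The groups did not overlap for 15 genes: both knockout pools lay below every control for 10, against a background of 13.9%, and above every control for 5, against 15.8%. For Scn2a, Cacna1d and Cacna1b the gap between the groups was at most 0.016, so these 3 of the 10 are separated by almost nothing. The count of 10 ran from 7 with arrays centred on their medians to 12 with probe sets averaged. The count of 7 lower genes was 4 without control pool 1, against 3.96% of all genes in that fit. It was 6 without control pool 2, against 3.78%, and 2 without control pool 3, against 3.12%. Of the 10 genes, Cacna1c, Cacnb2 and Cacnb4 had an unadjusted limma p under 0.05 with any 1 pool left out, and the other 7 lost it in at least 1 of these 5 fits. A lone knockout pool clears every control more readily than 2 pools do, so counts without overlap are not given with a knockout pool left out.

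**Figure D1:**
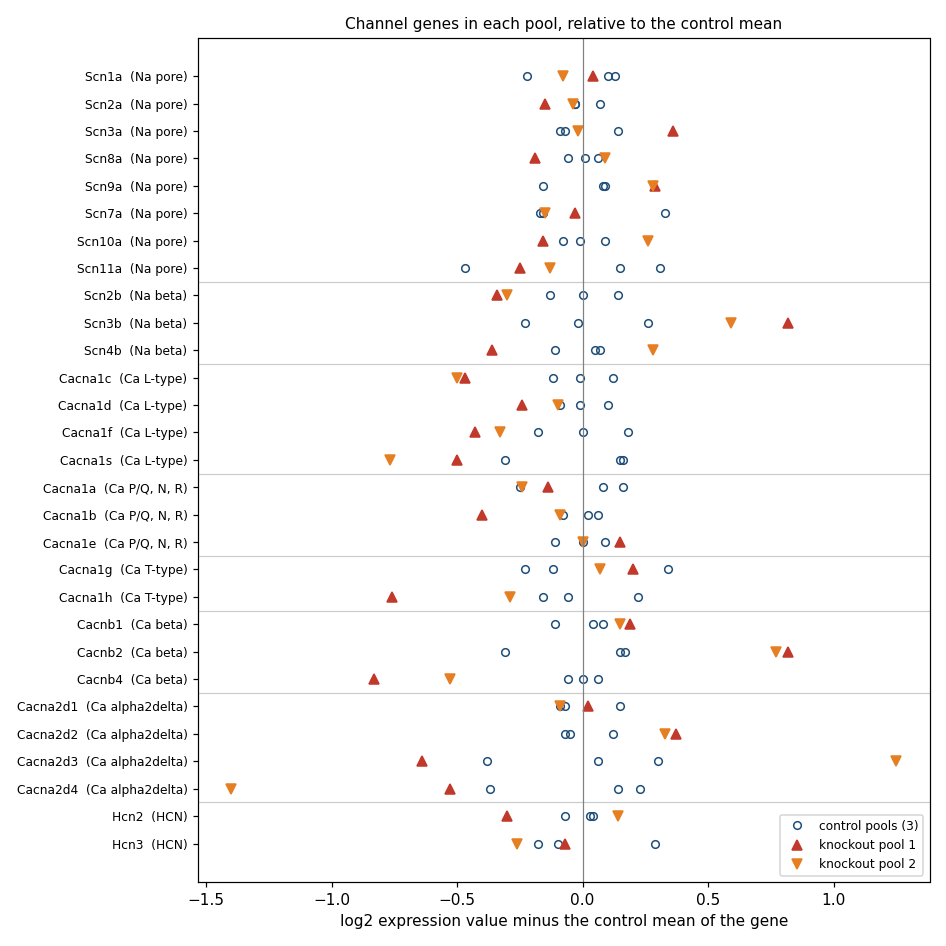
Deviation of each pool from the control mean of the gene (horizontal axis, log2 units) for the 29 channel genes (vertical axis, ordered by role); open circles are the 3 control pools and triangles the 2 knockout pools. All 4 L-type genes lie to the left of the controls in both knockout pools, and the knockout pools of Cacna2d3 differ by -1.89 (pool 1 minus pool 2).

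No pore-forming sodium channel gene passed the test. Of 8 measured genes, 0 had an unadjusted limma p under 0.05, against 11.8% of all genes, and their log2 fold changes ran from -0.19 to 0.29. Scn1a, Scn2a, Scn3a and Scn8a encode the principal sodium channels of central neurons, with Scn3a the form typical of the developing brain. Scn2a read 11.45 and 11.56 in the knockout pools and 11.57, 11.67 and 11.57 in the control pools, a difference of -0.10 with a standard error of 0.11, and of -0.05 without knockout pool 1. Scn3a read 12.54 and 12.16 in the knockout pools and 12.32, 12.11 and 12.09 in the control pools, so only knockout pool 1 lay outside the control range. Scn1a differed by -0.02 and Scn8a by -0.05, with standard errors of 0.15 and 0.13. The other probe sets of Scn1a gave -0.33 and, at a dim one, -0.26, both with no overlap. Those of Scn2a gave -0.10 and -0.37 with overlap and, at a dim one, -0.32 without. Those of Scn8a lay between -0.16 and -0.04 and overlapped.

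Scn9a, best known as the sodium channel of pain-sensing neurons, read 9.96 and 9.95 in the knockout pools and 9.76, 9.75 and 9.51 in the control pools. Both knockout pools were above every control, with a log2 fold change of 0.29 and a standard error of 0.13 (limma adjusted p = 0.486). That probe set carries the suffix x, which marks probes that may read other transcripts too. A second probe set gave 0.28, also with no overlap, and the other probe sets above the median level gave 0.02 and -0.01; with all 5 averaged the difference was 0.08. Scn7a, a sodium-sensing channel of glia, and Scn10a and Scn11a, channels of sensory ganglion neurons, were below the median level of all probe sets, with means from 4.35 to 5.53 over the 5 arrays. Their differences lay between -0.19 and 0.05. Sensory ganglion markers, 6 of 7 of them below that level, summed to 803 in knockout pool 1, 288 in knockout pool 2 and 323 to 389 in the controls. Isl1, which the GABAergic and prethalamic list also holds, made up 556 of the 803, and without it the sums were 247 and 264 against 316 to 376.

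Among the auxiliary beta subunits of sodium channels, Scn3b was higher and Scn2b lower in both knockout pools. These single-pass membrane proteins with an immunoglobulin fold tune gating and anchor the channel; Scn3b is typical of the immature brain and Scn2b increases as neurons mature. Scn3b read 12.33 and 12.10 in the knockout pools and 11.77, 11.49 and 11.28 in the control pools. The groups did not overlap. The knockout mean was 1.63-fold higher, or 0.70 on the log2 scale (standard error 0.18; limma adjusted p = 0.276). A second probe set gave 0.31 and overlapped the controls.

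Scn2b read 10.15 and 10.19 in the knockout pools and 10.49, 10.36 and 10.63 in the control pools. Both knockout pools were below the controls, by -0.32 on average with a standard error of 0.12 (limma adjusted p = 0.429). A dim probe set of Scn2b gave -0.66 with no overlap, and the third gave -0.06 with overlap. Scn4b, the subunit linked to resurgent sodium current, was below the median level and read 5.0 and 5.64 in the knockout pools and 5.43, 5.41 and 5.25 in the control pools. Its knockout pools lay on either side of the controls.

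**Figure D2:**
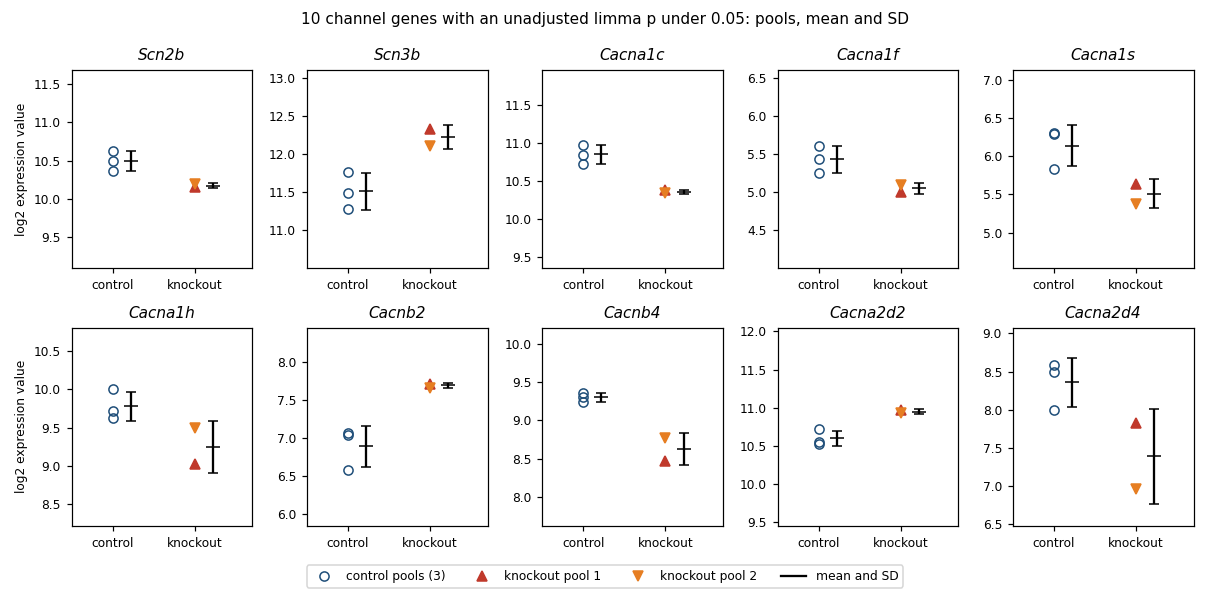
Log2 expression values (vertical axis) of the 10 channel genes with an unadjusted limma p under 0.05, in control and knockout pools, with the mean and SD beside each group; every panel spans the same number of log2 units. Scn3b, Cacnb2 and Cacna2d2 are higher in both knockout pools and the other 7 genes are lower.

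All 4 L-type calcium channel genes read lower in both knockout pools than in any control pool, 3 of them at an unadjusted limma p under 0.05. Over all genes 13.9% lay below every control and 4.90% were lower at that p. With 1 pool left out, Cacna1c had such a p in 5 of 5 fits, Cacna1s in 2 and Cacna1f in 1. L-type channels respond to sustained depolarisation and signal to the nucleus. Cacna1c, which encodes the main L-type pore of brain and heart, read 10.38 and 10.35 in the knockout pools and 10.97, 10.84 and 10.73 in the control pools. On the log2 scale the difference was -0.48 (standard error 0.12; limma adjusted p = 0.264), with the control mean 1.40-fold higher. A second probe set of similar level gave -0.09 and overlapped, so the probe sets of Cacna1c did not give the same picture; averaged, they gave -0.29.

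Cacna1d, the other L-type pore of neurons, read 11.35 and 11.49 in the knockout pools and 11.69, 11.58 and 11.50 in the control pools, with a difference of -0.17 and a gap between the groups of only 0.006. It was -0.10 without knockout pool 1 and -0.11 without control pool 1. A dim second probe set gave -0.38. Cacna1s, the L-type pore of skeletal muscle, read 5.64 and 5.37 in the knockout pools and 5.83, 6.29 and 6.30 in the control pools, a difference of -0.63 (limma adjusted p = 0.347). Cacna1f, the L-type pore of photoreceptor terminals, read 5.0 and 5.10 in the knockout pools and 5.43, 5.25 and 5.61 in the control pools, a difference of -0.38 (limma adjusted p = 0.426). Cacna1s and Cacna1f were below the median level of all probe sets, where the array compresses differences. The tissues these last 2 genes are known from gave little signal: 10 of 12 skeletal muscle markers and 6 of 8 photoreceptor markers were also below that level. The summed linear signal of the muscle markers was 1260 and 1377 in the knockout pools and 1325 to 1641 in the controls. That of the photoreceptor markers was 365 and 366 against 398 to 421. Much of the muscle sums came from Ryr1, which the list of calcium channel partners below also holds. Ryr1 read 9.29 and 9.53 in the knockout pools and 10.08, 9.50 and 9.51 in the control pools. The muscle regulator Myog, at a mean of 3.57, and the photoreceptor regulator Crx, at 3.04, were far below the median level.

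Of the 3 genes of channels that trigger transmitter release, 0 had an unadjusted limma p under 0.05, against 11.8% of all genes. With 3 genes this count cannot be told from that background. Cacna1a encodes the P/Q-type, Cacna1b the N-type and Cacna1e the R-type pore. Cacna1b read 11.19 and 11.50 in the knockout pools and 11.61, 11.51 and 11.65 in the control pools, a difference of -0.25 with a standard error of 0.14 (limma adjusted p = 0.569). Its remaining 3 probe sets gave -0.31, -0.19 and -0.36, all negative. The difference was -0.09 without knockout pool 1 and -0.40 without knockout pool 2. Cacna1a differed by -0.19 and Cacna1e by 0.08, and both overlapped the controls. Another probe set of Cacna1a above the median level gave -0.28, with both knockout pools below every control. Its dim ones gave -0.03 and 0.03 with overlap.

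Of the T-type genes, Cacna1h was lower in the knockout, whereas Cacna1g overlapped the controls. T-type channels give thalamic relay neurons their burst firing, and Cacna1g encodes the form that relay neurons rely on. Cacna1g read 10.46 and 10.33 in the knockout pools and 10.14, 10.03 and 10.60 in the control pools, a difference of 0.14 with a standard error of 0.20. Cacna1h read 9.02 and 9.49 in the knockout pools and 9.62, 9.72 and 10 in the control pools, a difference of -0.52 with a standard error of 0.20 (limma adjusted p = 0.422). The difference was -0.29 without knockout pool 1, and a second, dimmer probe set of Cacna1h gave 0.09. With both probe sets averaged the difference was -0.22.

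The cytoplasmic beta subunits of calcium channels, which bring the pore to the membrane, gave the smallest p-value of the 29 genes in each direction. Cacnb4 read 8.47 and 8.77 in the knockout pools and 9.36, 9.24 and 9.30 in the control pools. The control pools spanned 0.12 and the gap to the nearer knockout pool was 0.468, and the difference was -0.68 (standard error 0.13; limma adjusted p = 0.193), with the control mean 1.60-fold higher. Its remaining probe sets gave -0.54 without overlap and -0.37 with overlap, so all 3 were negative. The difference was -0.53 without knockout pool 1.

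Cacnb2 read 7.71 and 7.66 in the knockout pools and 6.58, 7.06 and 7.04 in the control pools. It was higher by 0.80 (1.74-fold; standard error 0.18; limma adjusted p = 0.241), and by 0.77 without knockout pool 1. A dim second probe set gave 0.30 and overlapped. Cacnb1, the beta subunit of skeletal muscle that neurons also use, read 10.53 and 10.49 in the knockout pools and 10.42, 10.38 and 10.23 in the control pools. Its difference of 0.17 was 0.11 without control pool 3 and turned to -0.09 when all 4 of its probe sets were averaged.

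The annotated start regions of Cacnb2 and Cacnb4 are shown because these genes had the smallest p-values and opposite directions. The sequences are the 250 bases before a transcript start in the RefSeq promoter table of GRCm38.p6, 5′ to 3′ on the gene's strand, and 22 of the 29 genes had an entry there. Capitals mark GC boxes (GGGCGG) and half-sites of the cyclic AMP response element (TGACG) on either strand; adjoining or overlapping matches run together. Cacnb2 lies on the plus strand, with starts after chr2:14604056-14604305 and chr2:14823842-14824091. Cacnb4 lies on the minus strand, and 2 of its 3 listed starts are shown, at chr2:52676144-52676393 and chr2:52558612-52558861.
Cacnb2 upstream start: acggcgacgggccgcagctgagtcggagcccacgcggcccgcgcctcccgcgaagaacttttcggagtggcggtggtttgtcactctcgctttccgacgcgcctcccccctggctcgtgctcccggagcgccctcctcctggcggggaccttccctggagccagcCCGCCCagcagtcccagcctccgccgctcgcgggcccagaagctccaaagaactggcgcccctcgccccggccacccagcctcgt
Cacnb2 downstream start: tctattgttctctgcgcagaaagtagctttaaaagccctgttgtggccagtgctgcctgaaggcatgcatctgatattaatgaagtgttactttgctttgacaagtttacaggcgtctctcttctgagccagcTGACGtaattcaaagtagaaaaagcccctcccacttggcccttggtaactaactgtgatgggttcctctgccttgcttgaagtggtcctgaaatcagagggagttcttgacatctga
Cacnb4 upstream start: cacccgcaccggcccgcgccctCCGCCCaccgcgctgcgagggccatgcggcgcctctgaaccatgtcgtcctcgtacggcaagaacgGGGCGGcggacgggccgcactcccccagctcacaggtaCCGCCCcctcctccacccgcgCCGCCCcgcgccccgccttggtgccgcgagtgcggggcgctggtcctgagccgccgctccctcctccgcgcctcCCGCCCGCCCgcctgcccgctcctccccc
Cacnb4 downstream start: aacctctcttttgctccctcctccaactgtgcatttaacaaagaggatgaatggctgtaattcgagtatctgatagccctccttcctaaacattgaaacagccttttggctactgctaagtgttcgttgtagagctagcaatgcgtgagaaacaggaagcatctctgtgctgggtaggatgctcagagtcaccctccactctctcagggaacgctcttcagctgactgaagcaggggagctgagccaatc

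Both genes thus have a start in GC-rich sequence and another in sequence of ordinary composition. The GC content was 73.2% and 46.0% for the 2 Cacnb2 windows and 79.6% and 48.8% for the Cacnb4 windows shown, against a median of 52.4% over all windows. The upstream window of Cacnb4 held 6 GC boxes and that of Cacnb2 held 1, while the downstream windows held none. The Cacnb4 window that is not shown was also GC-rich, at 71.2%, but held no GC box. The downstream window of Cacnb2 held 1 half-site and no Cacnb4 window held any. Over all 32851 windows, 32.7% held a GC box and 17.8% a half-site, and over the 31 windows of the channel genes 13 and 5 did. These are matches of letters only, and the probe sets do not say which start was used.

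The alpha2delta subunits, extracellular proteins that raise channel density at the membrane and at synapses, included the channel gene with the largest negative difference and the 1 whose knockout pools lay furthest apart. Cacna2d4, best known from photoreceptors, read 7.83 and 6.96 in the knockout pools and 8.50, 7.99 and 8.59 in the control pools. It had the largest difference in size among the 29 genes, -0.97 with a standard error of 0.31 (limma adjusted p = 0.369). A second probe set gave -1.09, at 8.01 and 6.48 in the knockout pools and 8.30 to 8.36 in the controls. Knockout pool 2 was the lower at both probe sets, and the difference was -1.40 without knockout pool 1 and -0.53 without knockout pool 2. The remaining, dim probe set gave -0.10 and overlapped. In the GRCm38.p6 annotation Cacna2d4 overlaps Lrtm2 and Cacna2d3 overlaps Lrtm1. They are among 7 measured channel genes that overlap another protein-coding gene. The rest are Cacna1c (Dcp1b), Cacna1d (Chdh and Dcp1a), Cacna1h (Tpsg1), Cacnb1 (Rpl19) and Hcn3 (Pklr). Reads of a neighbour by the probe sets of these genes were not tested.

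Cacna2d3 stood apart in its spread. It read 9.79 in knockout pool 1 and 11.68 in knockout pool 2, against 10.05, 10.73 and 10.49 in the control pools. Pool 1 lay below and pool 2 above every control, a difference of -1.89 (pool 1 minus pool 2), whereas the controls spanned 0.68. No other channel gene had knockout pools more than 1 log2 unit apart at its brightest probe set. At other probe sets, Cacna2d4 (1.53) and Cacnb1 (-1.25) did. The mean difference of 0.31 had a standard error of 0.56 (limma adjusted p = 0.871) and became 1.25 without knockout pool 1, -0.64 without knockout pool 2 and 0.12 without control pool 1. Gbx2, a homeobox gene of relay neurons, read 9.02 and 11.22 in the same pools and 6.95 to 8.86 in the controls. Other relay neuron markers differed less between pools 1 and 2: Slc17a6 read 12.77 and 12.92, Tcf7l2 12.95 and 13.20, and Rora 12.36 and 12.19. The median deviation of the 20 relay neuron markers from the control mean was -0.03 in pool 1 and 0.13 in pool 2. The GABAergic summed signal given above was high in pool 1 alone, and its part in the spread of Cacna2d3 was not tested.

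Cacna2d2 read 10.97 and 10.93 in the knockout pools and 10.55, 10.53 and 10.72 in the control pools. Both knockout pools were above the controls, with a difference of 0.35 and a standard error of 0.11 (limma adjusted p = 0.372). Its 2 other probe sets, both dim, gave -0.07 and 0.06, and all 3 averaged gave 0.11. Cacna2d1, the target of gabapentin along with Cacna2d2, differed by -0.03 at its brightest probe set and overlapped, whereas its next probe set gave -0.56 with both knockout pools below every control.

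**Figure D3:**
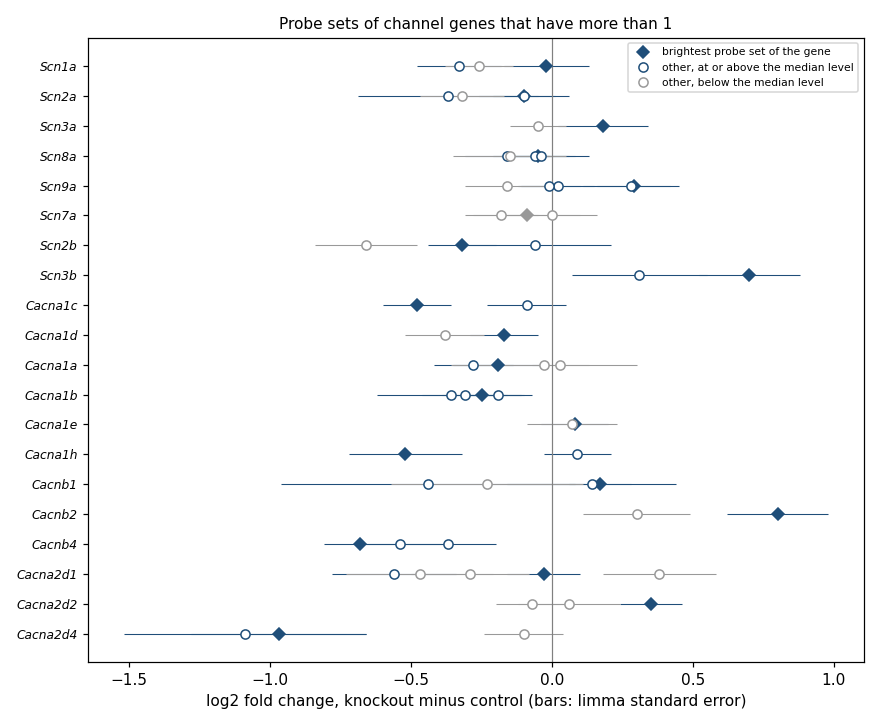
Log2 fold change, knockout minus control (horizontal axis; bars are limma standard errors), of every probe set of the 20 channel genes that have more than 1 (vertical axis). Diamonds are the brightest probe set of a gene and circles the others, grey where the level is below the median. Scn1a, Scn2a, Scn2b, Scn8a, Cacna1b, Cacna1c, Cacna1d, Cacnb4 and Cacna2d4 are negative at every probe set. Scn3b, Cacna1e and Cacnb2 are positive at every probe set, and Cacna1h and Cacna2d1 are among those that are split.

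Across the family the other probe sets mostly had the sign of the brightest one. Of 43 other probe sets of 20 genes, 33 had the same sign, and of the 23 at or above the median level 20 did. Probe sets of a gene share the RNA of the same pools, so this describes the measurement and adds no replicates. Of the 72, limma called 0 after adjustment, with 3 higher and 12 lower at an unadjusted p under 0.05, against 5.16% higher and 5.99% lower over all probe sets.

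The measured HCN genes overlapped between the groups. Hcn2, which encodes the main HCN channel of mature relay neurons, read 6.85 and 7.29 in the knockout pools and 7.19, 7.18 and 7.08 in the control pools, a difference of -0.08 with a standard error of 0.16. Hcn3 read 9.05 and 8.86 in the knockout pools and 8.94, 9.02 and 9.41 in the control pools, a difference of -0.17 with a standard error of 0.18. Neither had an unadjusted limma p under 0.05, against 11.8% of all genes.

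Genes of proteins that bind, anchor or regulate these channels were listed separately, together with other ion channel genes such as Ryr2, Ryr3 and Tpcn2. All are called partners below, 64 genes of which 54 were measured. By limma 0 of them were called after adjustment, against 0.104% of all genes. At an unadjusted p under 0.05, 7 were higher, against 6.90% of all genes, and 6 lower, against 4.90%. Pex5l, which encodes TRIP8b, the auxiliary subunit that controls where HCN channels are placed in neurons, gave the largest lower value. It read 7.41 and 6.86 in the knockout pools and 8.17, 8.25 and 8.45 in the control pools. The groups did not overlap, at a difference of -1.16 (standard error 0.20; limma adjusted p = 0.156). Its 3 dimmer probe sets gave -0.70, -0.54 and -0.26, and all 4 averaged gave -0.67. Of the 8 measured HCN partners and related cyclic nucleotide-gated channel genes, the other 7 did not pass an unadjusted p of 0.05.

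Among the 32 measured genes of the calcium channel partner list, 4 were lower at an unadjusted limma p under 0.05, against 4.90% of all genes. Another 5 were higher, against 6.90%. Rem2, a small GTPase that binds beta subunits and restrains high-voltage-activated calcium channels, read 10.42 and 10.25 in the knockout pools and 11.16, 11.23 and 11.08 in the control pools. Its difference was -0.82 with a standard error of 0.12 (limma adjusted p = 0.120), and its other probe set gave -0.90. With both probe sets averaged, Rem2 reached a limma adjusted p = 0.0491, within an adjusted p range of 0.0491 to 0.449 over the alternatives. Stac2, an adaptor that slows inactivation of L-type channels, read 7.44 and 6.72 in the knockout pools and 8.0, 8.03 and 8.06 in the control pools, a difference of -0.96 that was -0.60 without knockout pool 2. Cabp1, a calmodulin-like modulator of calcium channels, differed by -0.62, and Cacng5, of the gamma subunit family that also serves AMPA receptors, by -0.76; neither overlapped the controls. A dim second probe set of Cacng5 gave 0.07, and both averaged gave -0.34.

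The 5 higher partners were named after their values were seen. Cacng3, another gamma family member, read 8.03 and 8.98 in the knockout pools and 7.77, 7.33 and 5.94 in the control pools, a difference of 1.49 that was 0.96 without control pool 3 and 1.02 without knockout pool 2. Ryr2 and Ryr3, release channels of the endoplasmic reticulum, differed by 0.55 and 0.36, and Ryr2 by 0.36 without knockout pool 2. Their dim other probe sets overlapped, at 0.38 for Ryr2 and at 0.41 and 0.02 for Ryr3. With probe sets averaged, Ryr2 gave 0.46 and Ryr3 gave 0.26. Rimbp2, which ties calcium channels to the release site, differed by 0.36 and Tpcn2, a lysosomal ion channel gene, by 0.57. Tpcn2 was below the median level, at a mean of 5.59. The adjusted p-values of these 5 in limma lay between 0.298 and 0.446.

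Of 14 measured partners of sodium channels, 2 were higher and 1 lower at an unadjusted limma p under 0.05. These counts were near the background of 6.90% and 4.90% of all genes. More of the 14 did not overlap: both knockout pools lay above every control for 5, against 15.8% of all genes. They lay below every control for another 5, against 13.9%. Nfasc, the adhesion molecule that assembles sodium channels at the axon initial segment, read 11.54 and 11.77 in the knockout pools and 11.23, 11.19 and 11.23 in the control pools, a difference of 0.44 (limma adjusted p = 0.302), or 0.26 with its probe sets averaged. Fgf11, an intracellular fibroblast growth factor homologue of the family that binds sodium channels, differed by 0.75, by 0.46 without knockout pool 2 and by 0.30 with probe sets averaged. Its dim second probe set gave -0.15, with both knockout pools below every control. Nedd4, a ubiquitin ligase, differed by -0.35, and by -0.21 without knockout pool 1. Ank3, the ankyrin that anchors sodium channels at the initial segment, gave -0.22 and Nalcn, the sodium leak channel, gave -0.10. Neither passed an unadjusted p of 0.05. For both genes the 2 knockout pools lay below every control, with gaps of 0.087 and 0.025.

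**Figure D4:**
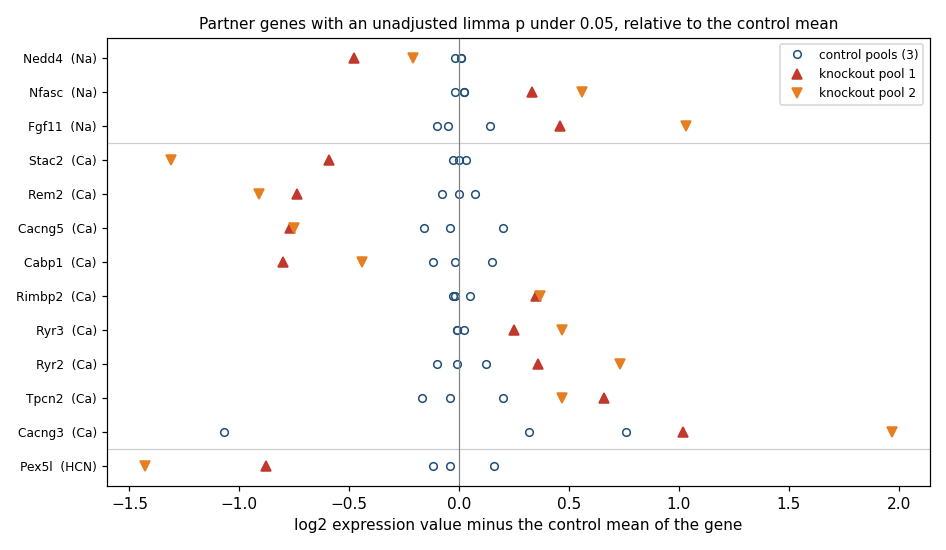
Deviation of each pool from the control mean of the gene (horizontal axis, log2 units), for 13 partner genes (vertical axis, by partner list). All 13 had an unadjusted limma p under 0.05. Open circles are control pools and triangles knockout pools. Pex5l and Stac2 lie furthest to the left, lowest in knockout pool 2, and the control pools of Cacng3 spread over 1.83.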

How the data were processed

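Per the labels' protocols, dLGN was dissected from vibratome sections of 200 µm and 20 ng of total RNA was amplified, biotin-labelled and hybridised to Affymetrix arrays, 1 per pool. The authors deposited 1 log2 value per probe set and array, which per the submitters' processing notes come from RMA, with no version or settings given there. RMA equalises array distributions, which hides any change common to most genes, and it compresses differences near background. That the scale is log2 was taken from the range of values.

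Of 45101 probe sets, 64 array controls were left out. The platform annotation gave 34945 of the rest 1 gene, 932 several and 9160 none. Knockout was compared with control in limma 3.58.1 (R 4.3.3; lmFit, eBayes), on both sides, with a genotype term alone and p-values adjusted by Benjamini-Hochberg over 45037 probe sets; the fit was tested on simulated data. For a single gene, the smallest p an exact permutation test allows at this size is 0.1. The number of arrays limits the precision.

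The member genes and lists were chosen with earlier results of these data known. Values by pool are given for members with an unadjusted p under 0.05, without overlap between groups, or, above the median level, with knockout pools over 1 log2 unit apart. From each partner list up to 4 genes with the smallest p were to be named, and others were chosen after their values were seen. Marker lists were summed as linear signals. The further lists of markers, for cortex and hippocampus, habenula, oligodendrocytes, astrocytes, endothelium and sensory ganglia, had median log2 fold changes of 0.12, -0.04, 0.20, 0.08, 0.29 and 0.18. Alternatives were a replicate block, quantile normalisation again, median centring, omission of dim probe sets, a trended or robust prior, array weights, averaged probe sets, and each pool left out in turn.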

Additional observations from a re-analysis of the deposited data

Results flagged for a closer look

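Array control probe sets, used in no comparison, gave a signal beyond the control pools in knockout pool 1. The log2 difference between 3′ and 5′ probe sets of Gapdh was 2.34 there, against 0.77 to 1.32 in the control pools and 0.96 in knockout pool 2. For Actb the same difference was 1.91, against 0.62 to 1.45 in the control pools and 0.97 in knockout pool 2. The part of this in the channel values was not tested.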

How the results depend on the processing

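The number of channel genes past an adjusted p of 0.05 in limma was 0 under every alternative run. The count of lower genes at an unadjusted p under 0.05, 7 as reported, was 3 with the replicate block, against 4.00% of all genes. It was 4 with array weights, against 4.08%, and 2 to 6 with 1 control pool left out, against 3.12% to 3.96%. Fewer samples or residual degrees of freedom enter the block and left-out fits. With the block, Scn2b, Cacna1h, Cacna1s and Cacna1f lost that p (0.127, 0.066, 0.0846 and 0.123). The count of higher genes stayed at 2 or 3. Genes with both knockout pools above every control, 5 as reported, numbered 3 with probe sets averaged and 5 to 7 with 1 control pool left out. Those with both below every control, 10 as reported, numbered 7 to 12 with all pools and 10 to 13 with 1 control pool left out. Fewer pools separate more readily, and the share of all genes without overlap was not computed with a pool left out. The median log2 fold change of the channel genes lay between -0.12 and -0.05 with all pools and between -0.16 and -0.05 with single pools left out; the lowest was without knockout pool 2. Of 374 recomputed differences of the named channel and partner genes, 2 changed sign, Cacna2d3 (from -0.64 without knockout pool 2 to 1.25 without knockout pool 1) and Cacnb1 (-0.09 with all probe sets averaged, which brings in dimmer probe sets), and 1 passed the adjusted threshold (Rem2). The replicate numbers share no stated litter, and the deviations of same-numbered pools correlated at 0.15 and 0.21 in only 2 pairs, so the numbers were not taken as pairs. Over all genes at their brightest probe set, the adjusted calls were 19 as reported, 0 with the block and with any pool left out, and 62 without dim probe sets, 61 with a trend and 99 with probe sets averaged. With 2 knockout pools, each left-out fit on that side assumes that the lone pool varies like the controls. Low signal limits Cacna1s, Cacna1f, Scn4b, Scn7a, Scn10a and Scn11a, and Tpcn2 among the named partners.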
